A study of Homo sapiens with 4 samples.

Results

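The genes examined here are 55 genes of endoplasmic reticulum secretion and protein folding, taken from a list of gene symbols. The list was drawn up with earlier results of these data known, though no binding value was used to choose its genes. They are 55 of 20037 protein-coding genes in the RefSeq table used. All 55 symbols matched that table. The study profiled IRF3, a transcription factor known for activating interferon genes, by chromatin immunoprecipitation and sequencing (ChIP-seq). The cells were MM1.S, an established human multiple myeloma line that is a model of malignant plasma cells, grown in medium with serum and given no treatment. The 4 samples were 2 IRF3 ChIP libraries and 2 input libraries, which hold sheared chromatin without selection by the antibody. The ChIP libraries are called replicate 1 and replicate 2, and no label gives separate cultures, so the difference between them may be technical. There was no second condition, no control antibody and no line without IRF3, so each value describes enrichment over input in 1 state of 1 cell line. The peak lists hold no expression values, so the identity of the line was not checked against markers.

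Plasma cells secrete antibody, and nearly all of it passes through the endoplasmic reticulum. Proteins enter through a membrane channel, receive sugars from an oligosaccharyltransferase, fold with chaperones and disulfide isomerases, and leave in coated vesicles, while those that fail to fold are pulled out and degraded. When unfolded protein accumulates, the sensors IRE1, PERK and ATF6 start the unfolded protein response, which raises transcription of chaperone and degradation genes through short promoter sequences known as ER stress elements. The members were placed in 7 roles, which were 5 stress sensors, 12 chaperones and their helpers, 7 oxidative folding genes, 9 degradation genes, 14 translocation genes, 4 glycosylation genes and 4 vesicle transport genes.

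Every member carried an IRF3 peak in both replicates. A peak here is a stretch of the genome that the authors' peak caller found enriched over input, and its summit is the highest point. A gene was called when 1 peak of each replicate had its summit within the gene span plus 1 kb and those peaks overlapped by at least 1 bp. Such a pair is a shared peak. By this rule 55 of 55 members were called (100%), beside 62.0% of all protein-coding genes (12424 of 20037). The background includes silent genes, and no expression or open chromatin data were used here, so how far the count differs from that of other active genes was not tested. Within the member windows lay 174 peaks of replicate 1 and 167 of replicate 2. Members had a median span of 23.1 kb and all coding genes 24.1 kb.

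Length could enter through the span, so start sites were also used. A RefSeq promoter table of GRCh38.p14 gave an annotated start for 47 members. Of these, 47 had a shared peak within 1 kb of a start (100%), beside 54.3% of all coding genes with an entry (8606 of 15842). The other 8 (PDIA3, DERL1, DERL3, SPCS1, SRPRA, RPN1, KDELR2 and SEC24D) each had a shared peak within 1 kb of an end of the gene span. The members PDIA6, SRPRB and KDELR1 had no shared peak at an outer end of the span, and all 3 had one at an annotated start inside it. PDIA6, a disulfide isomerase, had summits 182 and 197 bp downstream of such a start.

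With a fold enrichment of at least 5 required in both replicates, 45 of 55 members were called (81.8%), beside 35.8% of all coding genes. Fold enrichment is the authors' ratio of ChIP signal to local input background at the summit. The 10 members that missed this threshold were ATF6B, CRELD2, SDF2L1, ERO1A, ERO1B, EDEM2, DERL3, SSR1, DDOST and SEC24D. They came from all 7 roles.

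**Figure D1:**
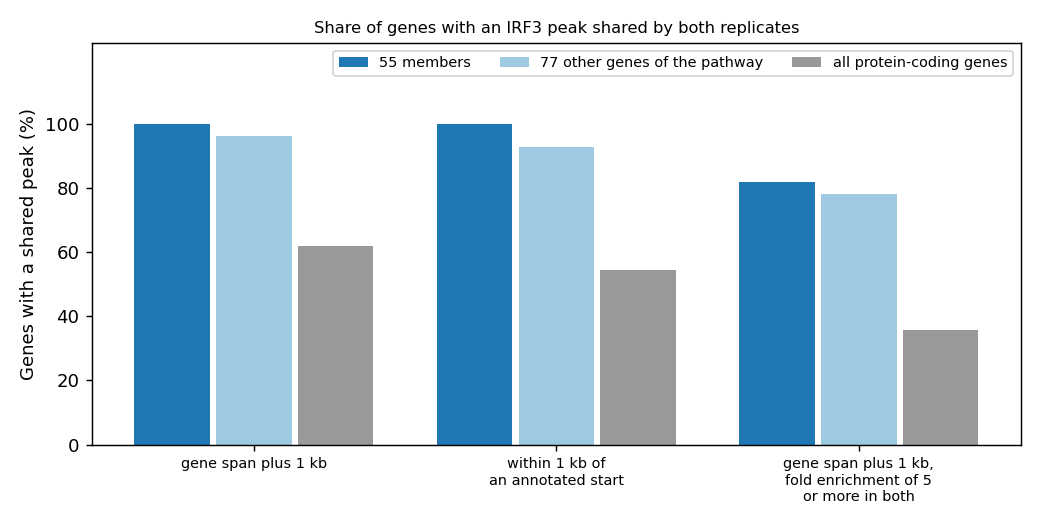
Percent of genes with a shared IRF3 peak under 3 call rules, for the 55 members, 77 other genes of the pathway and all protein-coding genes. Bars for start sites cover the genes with an annotated start; the members reach 100%, 100% and 81.8%, and all coding genes 62.0%, 54.3% and 35.8%.

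The strongest shared peak of each member had a median fold enrichment of 6.85 in replicate 1 (range 1.91 to 27.0) and 11.3 in replicate 2 (range 3.97 to 57.5). Over all called coding genes the medians were 5.65 (quartiles 4.17 and 7.60) and 8.02 (quartiles 5.58 and 11.6). To place a gene, the lower of its within-list percentiles was ranked among all 12424 called genes, which gives a strength percentile with 100 the strongest. The median over the members was 70.9, with quartiles at 53.0 and 88.0. Of the 55, 25 were at or above the 75th percentile, 12 at or above the 90th, and 13 below the 50th. Membership of the list thus did not fix the strength, which ran from 0.137 for EDEM2 to 99.8 for HERPUD1. Fold enrichment was higher in replicate 2 for 52 of 55 members, and the same held for 84.7% of all called genes. The median ratio of replicate 2 to replicate 1 was 1.78 in members and 1.43 in all called genes. Each replicate was set against its own input, and the source of the gap between replicates was not tested.

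**Figure D2:**
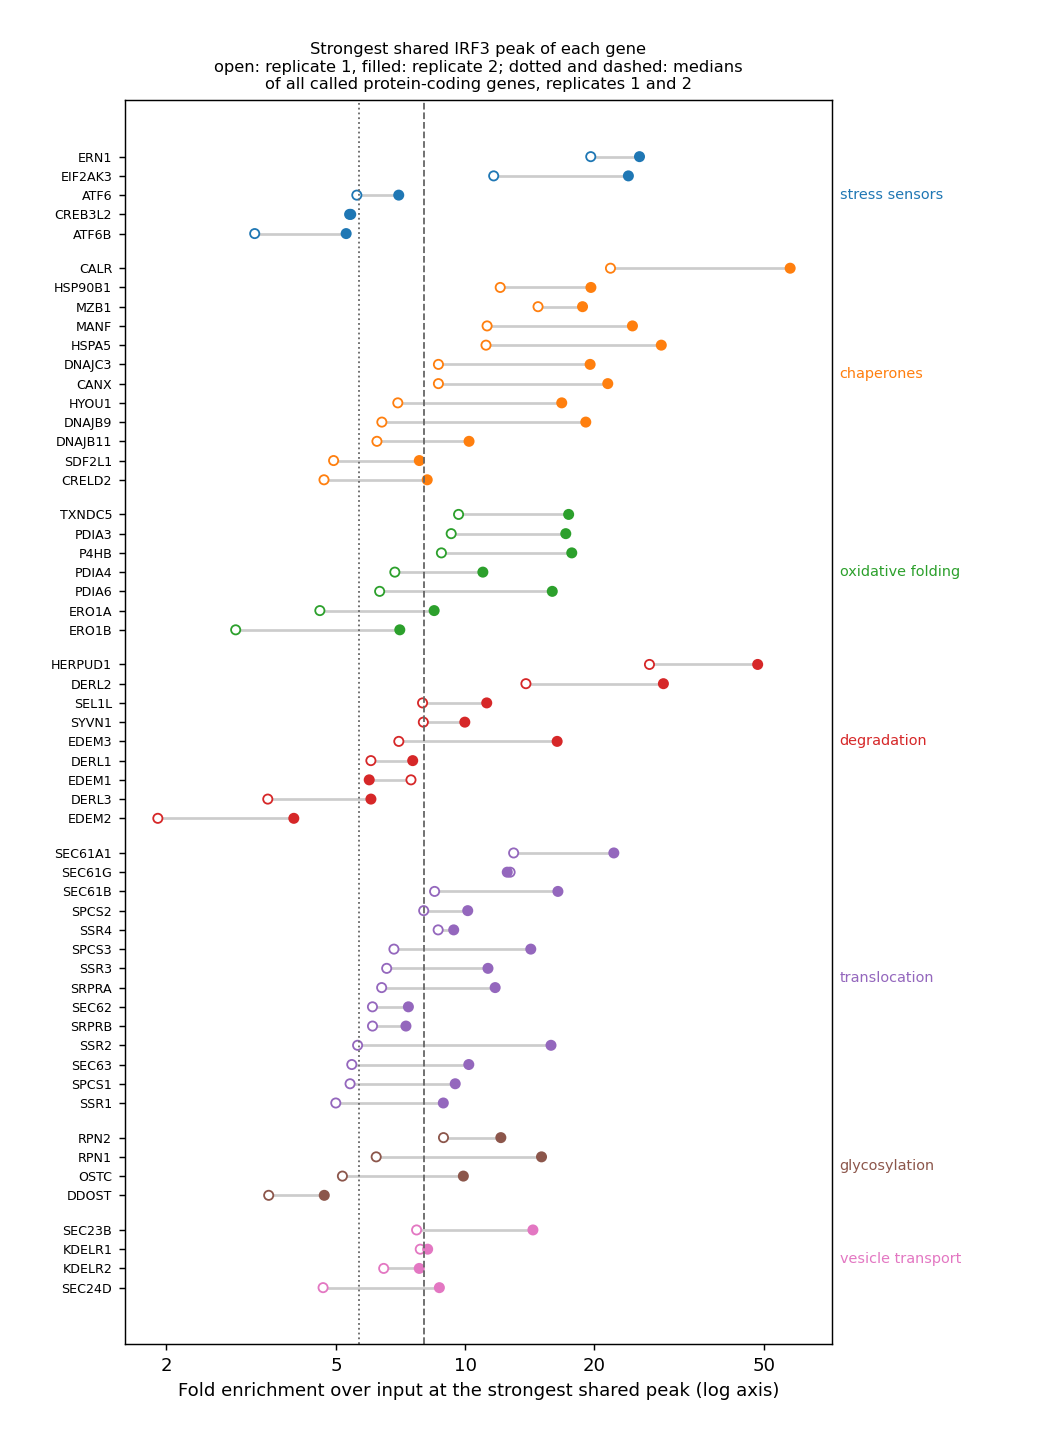
Fold enrichment over input (log axis) of the strongest shared peak of all 55 members, grouped by role and ordered by strength percentile. Open circles are replicate 1, filled circles replicate 2; the dotted and dashed lines are the medians of all called coding genes, 5.65 and 8.02, and HERPUD1 and CALR lie farthest to the right.

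Promoter sequences of 8 members are shown because they carry the letters of the stress elements that the unfolded protein response is known to use, at starts whose IRF3 peaks differed widely in strength. They are the 250 bases before the start, from RefSeq GRCh38.p14, printed 5′ to 3′ on the strand of the gene. Capitals mark matches on either strand to the ER stress element (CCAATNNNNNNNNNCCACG) in the first 5, and to the second ER stress element (ATTGGNCCACG) in HERPUD1, HYOU1 and SDF2L1. In HYOU1 capitals also mark the UPR element (TGACGTGG), which overlaps the first of its 2 second elements. The windows are HSPA5 at chr9:125241344-125241593, HSP90B1 at chr12:103930160-103930409, CALR at chr19:12938359-12938608, PDIA6 at chr2:10812786-10813035, ERO1B at chr1:236281959-236282208, HERPUD1 at chr16:56931892-56932141, HYOU1 at chr11:119057206-119057455 and SDF2L1 at chr22:21642052-21642301. The genes HSP90B1, CALR, HERPUD1 and SDF2L1 lie on the plus strand and the others on the minus strand.

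HSPA5: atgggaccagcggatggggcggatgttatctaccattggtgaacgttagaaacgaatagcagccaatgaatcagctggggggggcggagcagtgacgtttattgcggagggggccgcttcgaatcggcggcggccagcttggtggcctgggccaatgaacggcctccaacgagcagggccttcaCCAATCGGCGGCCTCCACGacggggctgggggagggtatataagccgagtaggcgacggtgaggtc
HSP90B1: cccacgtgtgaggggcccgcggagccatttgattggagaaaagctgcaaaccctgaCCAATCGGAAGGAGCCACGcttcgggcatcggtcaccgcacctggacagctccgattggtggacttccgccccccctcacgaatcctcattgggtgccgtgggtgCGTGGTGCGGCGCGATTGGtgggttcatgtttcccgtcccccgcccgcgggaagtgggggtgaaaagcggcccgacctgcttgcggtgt
CALR: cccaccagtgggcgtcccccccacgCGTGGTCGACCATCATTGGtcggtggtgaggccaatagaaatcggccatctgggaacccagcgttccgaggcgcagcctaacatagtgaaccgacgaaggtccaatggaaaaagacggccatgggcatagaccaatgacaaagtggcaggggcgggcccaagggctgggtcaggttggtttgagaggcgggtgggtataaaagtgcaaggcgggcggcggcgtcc
PDIA6: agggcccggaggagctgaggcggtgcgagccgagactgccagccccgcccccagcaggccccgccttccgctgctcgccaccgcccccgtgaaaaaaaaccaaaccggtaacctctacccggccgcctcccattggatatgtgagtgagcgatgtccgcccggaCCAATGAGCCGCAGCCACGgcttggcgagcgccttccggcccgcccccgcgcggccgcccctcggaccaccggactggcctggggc
ERO1B: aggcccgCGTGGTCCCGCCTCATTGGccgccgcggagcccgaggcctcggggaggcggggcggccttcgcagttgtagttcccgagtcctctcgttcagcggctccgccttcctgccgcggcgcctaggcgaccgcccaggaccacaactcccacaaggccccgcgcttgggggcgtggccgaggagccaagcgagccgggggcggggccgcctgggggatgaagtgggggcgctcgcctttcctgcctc
HERPUD1: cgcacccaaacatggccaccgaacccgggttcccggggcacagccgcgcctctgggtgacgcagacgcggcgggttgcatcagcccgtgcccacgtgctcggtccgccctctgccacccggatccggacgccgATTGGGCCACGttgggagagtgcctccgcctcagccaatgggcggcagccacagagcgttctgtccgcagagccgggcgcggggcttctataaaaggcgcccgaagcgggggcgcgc
HYOU1: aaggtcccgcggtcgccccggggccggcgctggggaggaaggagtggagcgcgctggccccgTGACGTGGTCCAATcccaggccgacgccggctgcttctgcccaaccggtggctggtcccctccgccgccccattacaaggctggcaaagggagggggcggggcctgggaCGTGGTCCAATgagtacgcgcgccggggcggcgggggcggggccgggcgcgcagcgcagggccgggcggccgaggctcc
SDF2L1: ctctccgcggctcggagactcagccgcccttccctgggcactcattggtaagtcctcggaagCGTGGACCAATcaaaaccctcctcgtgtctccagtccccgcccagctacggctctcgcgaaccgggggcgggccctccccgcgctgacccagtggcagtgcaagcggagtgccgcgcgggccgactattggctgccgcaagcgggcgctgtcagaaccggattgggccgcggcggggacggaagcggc

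The ER stress element was found in the promoters of 7 of 47 members (14.9%), and in 21 of 15842 coding genes in all (0.133%). The 7 were HSPA5, HSP90B1, CALR, CANX, CRELD2, PDIA6 and ERO1B, so members made up 7 of those 21 genes. The second element was in 3 members (6.38%) and in 14 coding genes (0.0884%), and the UPR element in 5 members (HYOU1, TXNDC5, SEC62, SSR3 and SSR4; 10.6%) against 0.865%. Parts of these elements were frequent as well. CCAAT stood in 36 members (76.6%, against 40.2% of coding genes) and CCACG in 35 (74.5%, against 45.3%). The elements contain these shorter motifs, so the counts overlap.

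Medians at the start were higher for members with either ER stress element, and the ranges overlapped. The 10 members with either ER stress element had a median fold enrichment at the start of 7.80 in replicate 1 (range 2.91 to 27.0) and 18.2 in replicate 2 (range 7.03 to 57.5). The 37 without one had 6.85 (1.91 to 19.7) and 12.1 (3.79 to 29.1). Of the 10 with one, HSPA5, HSP90B1, CALR, CANX, CRELD2, HYOU1 and SDF2L1 were chaperones, the role with the highest medians (8.65 and 19.4). For the UPR element the start medians were 6.96 and 11.3 in 5 members with it and 6.92 and 13.4 in 42 without. The 36 members with CCAAT had start medians of 7.55 and 16.2, and the 11 without it 5.58 and 8.46. For CCACG the direction was reversed, at 6.96 and 12.5 in 35 members with it and 7.65 and 13.2 in 12 without. The printed windows of HSPA5, HSP90B1, CALR, HERPUD1 and HYOU1 lay wholly inside the peaks of both replicates, and those of PDIA6, ERO1B and SDF2L1 did not. In ERO1B the element itself lay beyond the end of both peaks. HERPUD1 and CALR, the strongest members, hold an element, and ERO1B, near the bottom of the list, also holds one. Whether an element goes with peak strength was not tested. Over the 35 coding genes with either element, 26 were called at the start (74.3%), beside 54.3% of those without. The 10 members are among these 35 and all 10 were called, so they raise that share.

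Letters of IRF sites were rare both at member starts and over all coding genes. The interferon-stimulated core (GAAANNGAAA), the repeat that IRF factors are known to bind, was found in 1 of 47 members (2.13%) and in 570 of 15842 coding genes (3.60%). The member was SEC23B, a vesicle coat gene, at positions -246 to -237 from the inner of its starts. The ETS-IRF composite (GGAANNGAAA), which IRF4 and PU.1 are known to bind together, was in 0 members and in 467 coding genes (2.95%). The ETS core (CCGGAAG) was in 12 members (25.5%, against 14.0%), the GC box (GGGCGG) in 33 (70.2%, against 62.1%), the E box (CACGTG) in 8 (17.0%, against 9.73%) and the CRE core (TGACG) in 18 (38.3%, against 30.4%). An NRF1-like motif (GCGCATGC) was in ATF6B alone (2.13%, against 4.34%). A match describes letters in this window, and the lack of one says only that these letters are not in it. Member windows had a median GC content of 65.2%, compared with 62% in coding genes.

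Summits sat close to start sites. Among the 47 members with an annotated start, the mean summit of the strongest shared peak lay within 1 kb of a start in 42 (89.4%) and within 250 bp in 35 (74.5%). For all called genes with a start these shares were 74.4% and 60.0%. The median position was 96 bp downstream of the start, and 31 of the 42 summits within 1 kb were downstream (73.8%), beside 64.9% of such summits over all coding genes. The summits of the strongest pair were a median of 41 bp apart, close to the 37 bp of all called genes, with 47 of 55 within 100 bp. For the strongest pair at the start, both peaks held the start itself in 43 of 47 members (91.5%), near the 88.6% of all coding genes with a shared peak there. In EIF2AK3, P4HB and ERO1A a weaker shared pair held it, and in ATF6B no shared pair did.

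**Figure D3:**
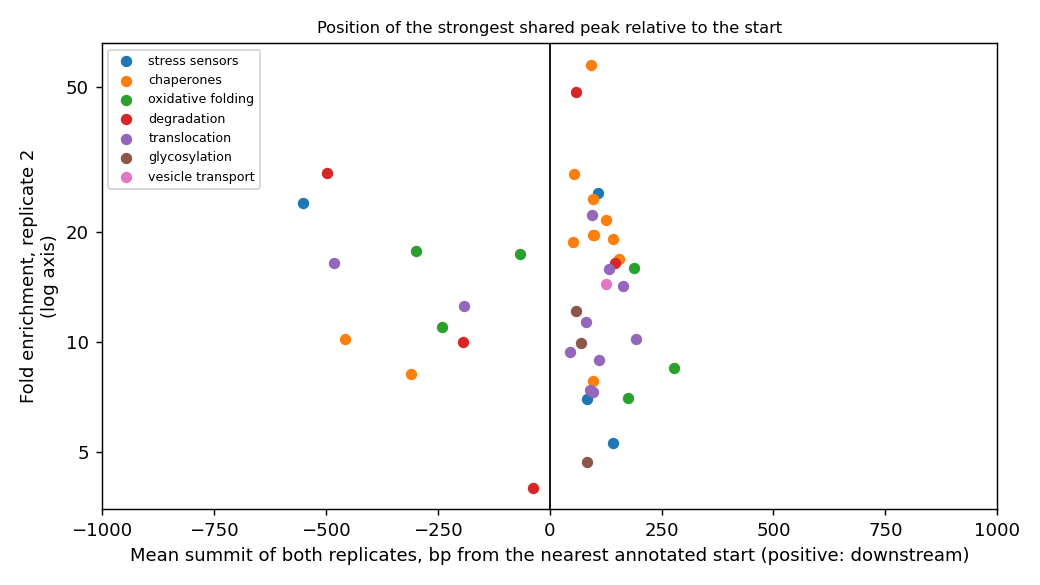
Fold enrichment in replicate 2 (log axis) against the mean summit position of both replicates, in bp from the nearest annotated start, for the 42 members whose strongest shared peak lay within 1 kb of a start. Points are genes coloured by role; most stand to the right of the start, at a median of 96 bp over all 47 members with a start.

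By their strongest shared peaks, the sensors split into a strong pair and 3 weaker genes. ERN1 encodes IRE1, the kinase and endonuclease that splices XBP1 messenger RNA, and its strongest peak reached 19.7 in replicate 1 and 25.5 in replicate 2. EIF2AK3 encodes PERK, the kinase that lowers translation under stress, and had 11.7 and 24.1. ATF6, the precursor of a transcription factor freed by cleavage, had 5.58 and 6.99. Its relative ATF6B had 3.22 and 5.27, and CREB3L2, another membrane-bound factor, 5.40 and 5.37. Both values of ERN1 and EIF2AK3 exceeded those of the other 3 genes, with strength percentiles of 98.2 and 95.7 against 55.9, 12.1 and 38.1. The strongest pair of EIF2AK3 had its summits at -523 and -578 bp from the annotated start. They lay inside the gene span, 130 bp from its outer end. A second pair, 117 bp from the start, had 4.45 and 11.5. The ERN1 locus also held the most peaks of any member. There were 22 peaks in each replicate within its 91.0 kb window on chromosome 17 (64039142 to 64130144 before the added 1 kb), of which 19 of replicate 2 were shared. Those at the start (64129456 to 64131079 in replicate 1) were the strongest, and one 26189 bp from the start had 10.1 and 9.47. ATF6 had 11 shared peaks of replicate 2 along 197.8 kb, none of them stronger than its start in replicate 2. The strongest pair of CREB3L2 was 20274 bp from the start, while its start had 3.05 and 11.5.

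Chaperone genes had the highest medians of the 7 roles, 8.65 in replicate 1 and 19.4 in replicate 2, with a median strength percentile of 88.0. Of 12, 8 were at or above the 75th percentile and 2 below the 50th. CALR encodes calreticulin, a lectin chaperone of glycoproteins, and had 21.9 and 57.5, the highest value of any member in replicate 2. Its peak spanned 12937187 to 12939038 on chromosome 19 in replicate 1, with a pileup of 556 stacked fragments and a −log10 q of 521. HSPA5 encodes BiP, the central chaperone that also holds the sensors inactive, and had 11.2 and 28.7. HSP90B1 encodes GRP94 and had 12.1 and 19.7. MANF, a secreted stress factor, had 11.2 and 24.6, and MZB1, a helper of antibody assembly in plasma cells, 14.8 and 18.8. These 5 genes all stood at or above the 95th strength percentile. DNAJC3, a co-chaperone of BiP, had 8.66 and 19.6, and CANX, the membrane-bound partner of calreticulin, 8.65 and 21.5. The summits of CANX were 652 bp apart, each near a different one of its 4 starts. HYOU1, the exchange factor of BiP, had 6.96 and 16.8, and the co-chaperone DNAJB9 had 6.38 and 19.1. DNAJB11 had 6.22 and 10.2, with both summits nearer to the end of TBCCD1. The lowest of the role were SDF2L1 (4.92 and 7.81) and CRELD2 (4.67 and 8.15), whose summits were nearer to ALG12.

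Oxidative folding genes divided between isomerases and oxidases. The isomerases form and shuffle disulfide bonds, and the ERO1 oxidases recharge them. TXNDC5 had 9.65 and 17.4, PDIA3 9.27 and 17.2, and P4HB, the classical disulfide isomerase, 8.80 and 17.7. PDIA4 had 6.85 and 10.99, and PDIA6 had 6.31 and 16.0. The oxidase ERO1A had 4.57 and 8.46 and its relative ERO1B 2.91 and 7.03. Both oxidases were thus below all 5 isomerases in each replicate. The strength percentiles were 37.3 and 7.59 for the oxidases and 67.3 to 92.1 for the isomerases. TXNDC5 differed in shape, because its strongest peak ran for 16783 bp in replicate 1 and 13453 bp in replicate 2 (chromosome 6, 7896010 to 7912792 in replicate 1), the longest of any member. In this role 3 of 7 summit pairs were within 100 bp. For P4HB, ERO1A and PDIA4 the summits lay 798, 803 and 602 bp apart. At P4HB, ERO1A and PDIA4 a single peak of replicate 2 overlapped 2 peaks of replicate 1.

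Degradation genes had the widest range of strength percentiles, from 0.137 to 99.8. HERPUD1, which helps assemble the retrotranslocation complex, had 27.0 and 48.3, the highest strength percentile of all members. Its peak covered 6069 bp in replicate 1 and 5634 bp in replicate 2 on chromosome 16 (56930322 to 56936390 in replicate 1). DERL2, a channel subunit, had 13.9 and 29.1, with summits at -508 and -486 bp from its annotated start. These lay inside its span, 142 bp from its own outer end and 301 bp from an end of MIS12. SYVN1, the ubiquitin ligase HRD1, had 7.98 and 9.98. SEL1L, the adaptor of HRD1, had 7.95 and 11.2 at a peak 257 bp from its far end, 62563 bp from the start, and 7.40 and 22.3 at the start. The mannosidase-like EDEM proteins, which mark misfolded glycoproteins, spanned the scale. EDEM3 had 6.99 and 16.4. EDEM1 had 7.47 and 5.96 at a site 9943 bp from the start and 4.78 and 12.5 at its start. EDEM2 had 1.91 and 3.97, the lowest of all members in both replicates, with a −log10 q of 3.24 in replicate 1. DERL1 had 6.02 and 7.54, and its relative DERL3 had 3.45 and 6.02.

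Translocation genes form the largest role. All 14 lay between 4.98 and 13.0 in replicate 1 and between 7.27 and 22.2 in replicate 2, and 13 reached a fold enrichment of 5 in both. The channel subunit genes had the highest strength percentiles of the role (87.3 to 96.9), with SEC61A1, the pore itself, at 13.0 and 22.2, SEC61G at 12.7 and 12.5 and SEC61B at 8.48 and 16.5. The summits of SEC61B were 141 bp from an end of ALG2 and 481 bp from its own. SEC62 (6.07 and 7.36) and SEC63 (5.43 and 10.2), which assist entry after translation, were lower. Genes of the translocon-associated complex were SSR4 (8.64 and 9.40), SSR3 (6.55 and 11.3), SSR2 (5.60 and 15.9) and SSR1 (4.98 and 8.89). The summits of SSR4 lay 33 and 57 bp from an annotated start, and 338 bp from an end of IDH3G. Signal peptidase genes, whose enzyme trims the leader of new proteins, had 7.995 and 10.1 (SPCS2), 6.81 and 14.2 (SPCS3) and 5.38 and 9.47 (SPCS1, with summits nearer to NEK4). The strongest pair of SPCS2 was 4515 bp from the start, with 8.26 and 9.53 at its start. The receptor genes for the signal recognition particle had 6.38 and 11.7 (SRPRA) and 6.07 and 7.27 (SRPRB). SRPRA shares its region with FOXRED1, whose end was 135 bp from the midpoint of the summits, which lay 427 bp apart.

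Glycosylation genes encode subunits of the oligosaccharyltransferase, and they had medians of 5.68 and 11.005. RPN2 had 8.89 and 12.1, RPN1 6.19 and 15.1, OSTC 5.16 and 9.90, and DDOST, a subunit of the same enzyme, 3.47 and 4.68. DDOST was the lowest in each replicate, and no member of this role reached the 90th percentile. The vesicle transport genes had medians of 7.07 and 8.43. SEC23B had 7.70 and 14.4 and SEC24D, a cargo adaptor of the same coat, 4.65 and 8.70. The retrieval receptors, which return chaperones that escape, had 7.85 and 8.17 (KDELR1) and 6.45 and 7.81 (KDELR2). For KDELR1 the strongest pair was not at the annotated start, where the values were 4.33 and 3.79.

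**Figure D4:**
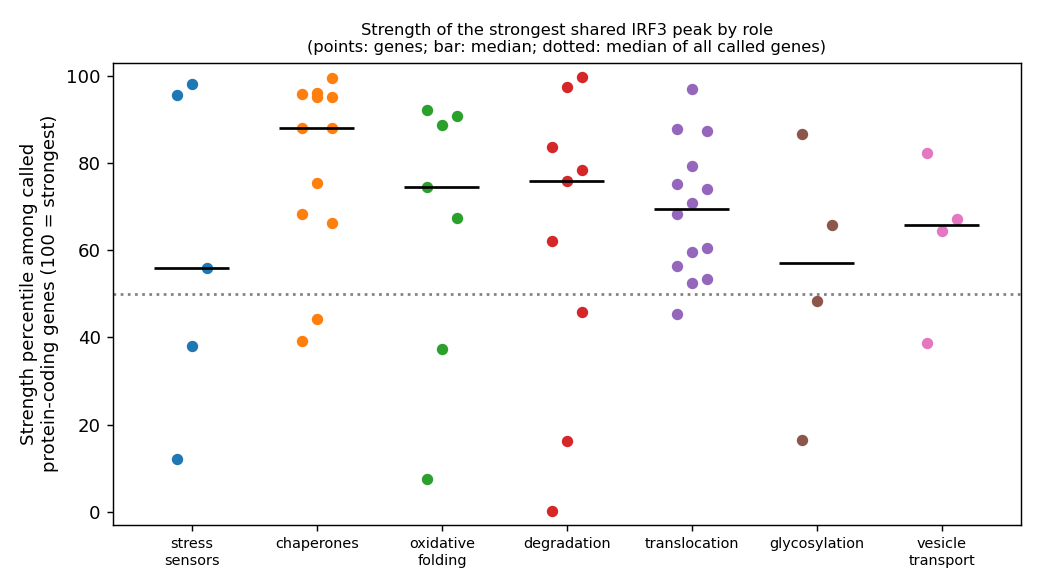
Strength percentile of each member among all called coding genes, by role, with 100 the strongest; points are genes, bars are role medians and the dotted line is the median of all called genes. Chaperones have the highest median (88.0) and stress sensors the lowest (55.9), and points of all roles overlap.

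By median strength percentile the roles ran from chaperones (88.0) through degradation (75.9), oxidative folding (74.4), translocation (69.6), vesicle transport (65.7) and glycosylation (57.1) to stress sensors (55.9). Ranges of all roles overlapped, the roles held 4 to 14 genes, and differences between them were not tested. The lowest median belonged to the sensors although ERN1 and EIF2AK3 were among the strongest 12 members. With 100% of each role called, roles could not differ in the count.

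Other genes of the pathway were listed for comparison. Of 77 further genes of stress regulation, folding, degradation, translocation, glycosylation and vesicle transport, 74 were called (96.1%) and 60 reached a fold enrichment of 5 in both replicates (77.9%). Their median fold enrichments were 7.06 and 10.96. CREB3L3, PDIA2 and KDELR3 had no peak in either replicate. The highest ranked were ATF4 (21.9 and 50.9), XBP1, the factor whose messenger IRE1 splices (16.9 and 28.1), DDIT3 (16.3 and 48.8), STT3B, a catalytic subunit of the oligosaccharyltransferase (21.8 and 24.9), TXNDC11 (15.6 and 23.7) and PPP1R15A (11.1 and 31.3). XBP1 had a peak of 11982 bp in replicate 1 and 6935 bp in replicate 2. TXNDC11 resembled ERN1 in its number of peaks, with 21 in replicate 1 and 24 in replicate 2.

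The number of sites differed between members. A total of 16 of 55 (29.1%) had 3 or more shared peaks of replicate 2, compared with 19.2% of all called genes, and 31 had 1 (56.4%), close to the 59.0% of all called genes. Peaks of at least 2 kb in both replicates were found at 4 members (7.27%, against 3.16% of called genes), namely MZB1, TXNDC5, HERPUD1 and SEL1L. The largest numbers of shared peaks were at ERN1, TXNDC5 (11) and ATF6 (11), followed by EIF2AK3 (8).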

How the data were processed

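Peak lists of 2 IRF3 ChIP libraries of MM1.S were analysed. MACS2 2.1.2 was run by the authors, per the file headers, on each ChIP library (38568845 and 46474586 tags) against its own input (58025919 and 60348415 tags), at a q-value cutoff of 0.05 with all duplicates kept. Per the submitters' processing notes, the tools included MACS2 2.1.1, deepTools 3.3.1, SAMtools 1.2, Picard 2.6.0 and BWA 0.7.15, and the build was GRCh38; their roles are not stated. Whether duplicates or problem regions were removed first is not stated. The deposited fold enrichment is a ratio of ChIP pileup to local input background, the deposited pileup is a signal, and the deposited −log10 p and −log10 q had damaged column names and were told apart by column order, the second being the lower. All are the authors' own values for each peak and carry no error. The spread shown is that between 2 replicates.

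Peaks were paired and assigned to genes in pandas 2.3.3 (numpy 2.4.6, Python 3.11.15), tested on simulated peaks. When a gene had several shared peaks, the pair with the highest lower within-list percentile was taken as the strongest. Gene spans and promoters came from RefSeq GRCh38.p14. A gene without a promoter entry was assessed at either end of its span. Only summit positions tie a peak to a gene. No test was run, since there was 1 condition, and counts are given beside those of all protein-coding genes. The members and lists were chosen with earlier results of these data known. All members are reported. Of the other genes of the pathway, XBP1 and the 5 others ranked highest were to be named, and the 3 without a peak were added after their values were seen.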

Additional observations from a re-analysis of the deposited data

How the results depend on the processing

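With the window at 0 bp beyond the span 48 members were called, and with 5 kb 55. With a −log10 q of at least 10 in both lists there were 53 (EDEM2 and ERO1B dropped out), with summits at most 100 bp apart 52, and with an overlap of at least 50% of each peak 50. Leaving out peaks nearer to an end of another coding gene gave 48, without CANX, CRELD2, DNAJB11, SEC61B, SRPRA, SRPRB and SSR4. That rule measures to the outer ends of gene spans. At CANX, SRPRB and SSR4 the strongest summits lay within 250 bp of an annotated start inside the span. The count was 55 without replicate 1 and 55 without replicate 2. These counts, and that at 5 kb, could not fall below 55, since all members were called with both lists at 1 kb. Of 47 members with a start, 45 were called within 500 bp, and 36 when fold enrichment had to reach 5 in both replicates. Shares over all coding genes were not computed for the counts in this paragraph, so how members compare with them there was not tested. Counts of each role stayed within 1.5 times under all these settings. The median fold enrichment ranged from 6.68 to 7.85 in replicate 1 and from 10.8 to 14.4 in replicate 2. No paired analysis was possible because the results come from no test, and each input entered only through the peak calls.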

Other observations

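Over all coding genes with an annotated start, the letters found before the start went with the share of genes called there in different ways. Of 2214 genes with the ETS core in the 250 bases before a start, 84.1% had a shared IRF3 peak within 1 kb, compared with 49.5% of the 13628 without it. Of 570 genes with the interferon-stimulated core, 51.2% had one, compared with 54.4% of the 15272 without it. With CCAAT the share was 57.4%, against 52.3%, and with CCACG 64.2%, against 46.1%. Among the members, where 100% were called, the 12 with the ETS core had a median fold enrichment at the start of 6.77 and 12.8 in the replicates, and the 35 without it 6.96 and 12.5. Base composition, open chromatin and expression of these genes were not tested.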
